A study of Mus musculus with 4 samples.

Results

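In inguinal fat, ChAT-eGFP+ cells were sorted from the stromal vascular fraction, and 555 of 21249 cells that passed the cell filters were T cells with a transcript of Cxcr5, the chemokine receptor that leads follicular helper T cells to B cell follicles. They were chosen by their own counts of unique molecular identifiers (UMIs, distinct captured transcripts): at least 1 Cxcr5 UMI, at least 2 UMIs over Cd3d, Cd3e and Cd3g, which encode chains of the T cell receptor complex, and no UMI of Foxp3 (regulatory T cells), Cd79a and Ms4a1 (B cells), C1qa (macrophages), Trdc (γδT cells) and Top2a (dividing cells). They are called Cxcr5+ T cells here. These genes chose the cells, so their levels are no result.

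Follicular helper T cells are CD4 T cells that stay close to B cells, where they give the contact signals and cytokines that germinal centre B cells need. The repressor Bcl6 sets this state and the adaptor SAP, encoded by Sh2d1a, keeps the contact with B cells stable. Choline acetyltransferase, encoded by Chat, makes acetylcholine, and lymphocytes are a known source of acetylcholine outside the nervous system.

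All mice were males that carried ChAT-BAC-eGFP, a transgene in which regulatory sequence of Chat on a bacterial artificial chromosome drives eGFP. The reporter marks transcription from the transgene, not the enzyme. Mice were 5 weeks old when they were moved to 30 °C (thermoneutrality) for 3 weeks. The 30C group stayed at 30 °C, and the 4C group was given 24 h at room temperature and then 4 h at 4 °C, so that the step at room temperature and the cold challenge cannot be told apart. Each temperature had 2 libraries, each from live single eGFP+ cells of 4 pooled mice, and p-values measure the spread between these libraries. The Cxcr5+ T cells numbered 99 and 133 in replicates 1 and 2 at 30 °C and 156 and 167 at 4 °C. Their summed UMIs were 688859 and 827863 at 30 °C and 1177628 and 1201586 at 4 °C, with a median of 6592, 5500, 6906.5 and 5962 UMIs per cell. No cell barcode of these cells occurred in more than 1 library.

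Genes that mark follicular helper T cells were detected in unequal shares of these cells. Sh2d1a was detected in 92.3% of the cells, Izumo1r (folate receptor 4) in 82.3%, Cd4 in 70.8% and Tox2, a nuclear factor that acts with Bcl6, in 65.4%. B cells of the same libraries should lack these transcripts. They were chosen with UMIs of Cd79a and Ms4a1 and no UMI of Cd3d, Cd3e, Cd3g or Top2a. This left out B cells with CD3 RNA of T cells, so their shares may be too low as a background. A Sh2d1a UMI was in 1.74% of the B cells, an Izumo1r UMI in 7.09%, a Cd4 UMI in 0.76% and a Tox2 UMI in 0.581%. Their median was 7703 UMIs per cell, against 6268 in the Cxcr5+ T cells. All 4 of these genes were present together in 249 cells (44.9%), 3 of them in 175 cells and none in 7 cells. Sh2d1a and Izumo1r were also detected in 74.5% and 68.3% of the other CD4 T cells, and Tox2 in 27.8%. Bcl6 was detected in 36.9% of the Cxcr5+ T cells, Cd200 in 42.3% and Ascl2 in 12.8%. In B cells Bcl6 was detected in 10.6% and Cd200 in 39.2%, near its share in the Cxcr5+ T cells. Trac, the constant part of the αβ T cell receptor, was detected in 98.6% of the cells.

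Cxcr5 itself rested on few UMIs in each cell. Of the 555 cells, 325 had 1 Cxcr5 UMI, 116 had 2 and 114 had 3 or more. Just inside the threshold, cells with 1 Cxcr5 UMI held 184 CPM of Tox2 and 64.4 CPM of Bcl6, where CPM is the UMI count of a gene scaled to the summed UMIs of the population. Just outside it, 2414 T cells of the same gate without a Cxcr5 UMI held 50.8 and 20.6. Macrophages, chosen by C1qa with no UMI of the CD3 genes or Cd79a, had a Cxcr5 UMI in 0.669% of cells. B cells, which use the same receptor, had one in 46.3%.

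RNA of B cells was also present. Ighm was detected in 84.1% of the Cxcr5+ T cells, 69.8% of the other CD4 T cells and 94.9% of the Foxp3+ T cells, and Igkc in 91.2%, 88.6% and 89.9%. The B cell genes Cd79b and Ighd were detected in 8.29% and 6.67% of the Cxcr5+ T cells, against 99.7% and 84.1% of B cells. The 15 B cell markers summed to 1430, 1646, 1010 and 1767 CPM in the 30 °C and then the 4 °C replicates, none was at 0, and Ighm was the most abundant with 2314 UMIs. Macrophage and dendritic cell markers summed to 49.4, 228, 81.5 and 75.7 CPM in the same order. Of these, Apoe was the most abundant and Ccl22 was at 0. Stromal markers summed to 72.6, 33.8, 23.8 and 31.6 CPM. The part of this RNA in the results below was not tested apart from leaving out cells with a UMI of any of 4 B cell genes, Ighm among them, which left 75 cells. Scrublet, which scores likeness to simulated doublets, marked 2.40% of all cells and 0 of the Cxcr5+ T cells.

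A smaller set of the chosen cells went against the name follicular helper. Eomes, a transcription factor of cytotoxic and memory T cells, was detected in 63 of the 555 cells (11.4%), and 55 of these also carried Nkg7, a granule protein of cytotoxic cells, against 2.44% of the cells without Eomes. Summed over the 4 libraries, cells with an Eomes UMI held 55.4 CPM of Cd4, against 278 in those without. Tox2 stood at 53.9 and 276, and Pdcd1, the checkpoint receptor PD-1, at 44.7 and 263 CPM. The libraries differed widely in the cells with Eomes. There Cd4 was at 0 and 0 CPM at 30 °C and 56.0 and 93.2 at 4 °C, and Tox2 at 0, 0, 22.4 and 111 in the same order. Both sets carried Sh2d1a, at 571 and 988 CPM. Cells with Eomes numbered 6 and 16 at thermoneutrality and 18 and 23 after cold challenge.

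The first comparison asked how the Cxcr5+ T cells differ from the 1060 other CD4 T cells of the same libraries. These passed the same gate with a Cd4 UMI and no Cxcr5 UMI. UMIs were summed per library and population, and the 8 sums were fitted with library as a factor. Of 7993 genes tested, 901 (11.3%) passed the threshold of edgeR's quasi-likelihood test (Benjamini-Hochberg adjusted p under 0.05), 413 (5.17%) higher and 488 (6.11%) lower in the Cxcr5+ T cells. Of 31 genes of the follicular helper program, 29 were tested, and 15 were higher, 3 lower and 11 did not pass. Their median log2 fold change was 0.45, beside 0.00 over all genes tested. This list and the markers were chosen with earlier results of these data known. The other CD4 T cells were required to carry a Cd4 UMI and the Cxcr5+ T cells were not, so Cd4 is not compared. That requirement also bears on genes carried by cells with little Cd4, as given below.

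Bcl6, Ascl2, Tox2 and Tcf7 of the program were higher in the Cxcr5+ T cells, and Irf4 was lower. Bcl6 stood at 81.3 and 88.2 CPM at 30 °C and 111 and 95.7 at 4 °C, against 31.9, 38.9, 29.5 and 35.3 in the other CD4 T cells of the same libraries, and the 2 populations did not overlap (log2 fold change 1.47 ± 0.14 SE, edgeR adjusted p = 1.8e-07). Ascl2, which induces Cxcr5, was higher by 2.06 ± 0.24, Tox2 by 1.42 ± 0.09, Tox by 0.57 ± 0.08 and Tcf7, needed for the early steps of this lineage, by 0.68 ± 0.08 on the log2 scale. Pou2af1, a coactivator used by B cells and follicular helper T cells, was higher by 2.33 ± 0.16 and Cebpa by 2.35 ± 0.18. Maf differed less, by 0.34 ± 0.07. Irf4, which is induced by T cell receptor signals, was lower by 0.96 on the log2 scale.

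Receptors and cytokines of the program did not all lie on the same side. Pdcd1 was higher by 1.56 ± 0.12, Sh2d1a by 1.09 ± 0.07, Izumo1r by 0.45 ± 0.10 and S1pr2, which holds cells in the follicle, by 1.50 on the log2 scale. Icos, a costimulatory receptor usually high on follicular helper cells, was lower, at 353, 325, 357 and 385 CPM against 523, 571, 640.2 and 611 in the other CD4 T cells (log2 fold change −0.76 ± 0.07, edgeR adjusted p = 9.3e-08). Cd200 was lower by 0.52 ± 0.09, but against T cells with no Cd4 UMI required it was higher by 0.19 without passing the test. Il21, the cytokine of germinal centre help, was detected in 24.7% of the Cxcr5+ T cells and was higher by 0.85 ± 0.15. Il4 was detected in 14.4% and did not pass the test (log2 fold change 0.49 ± 0.20, edgeR adjusted p = 0.13). Of the 137 cells with Il21, 22 also held Il4.

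**Figure D1:**
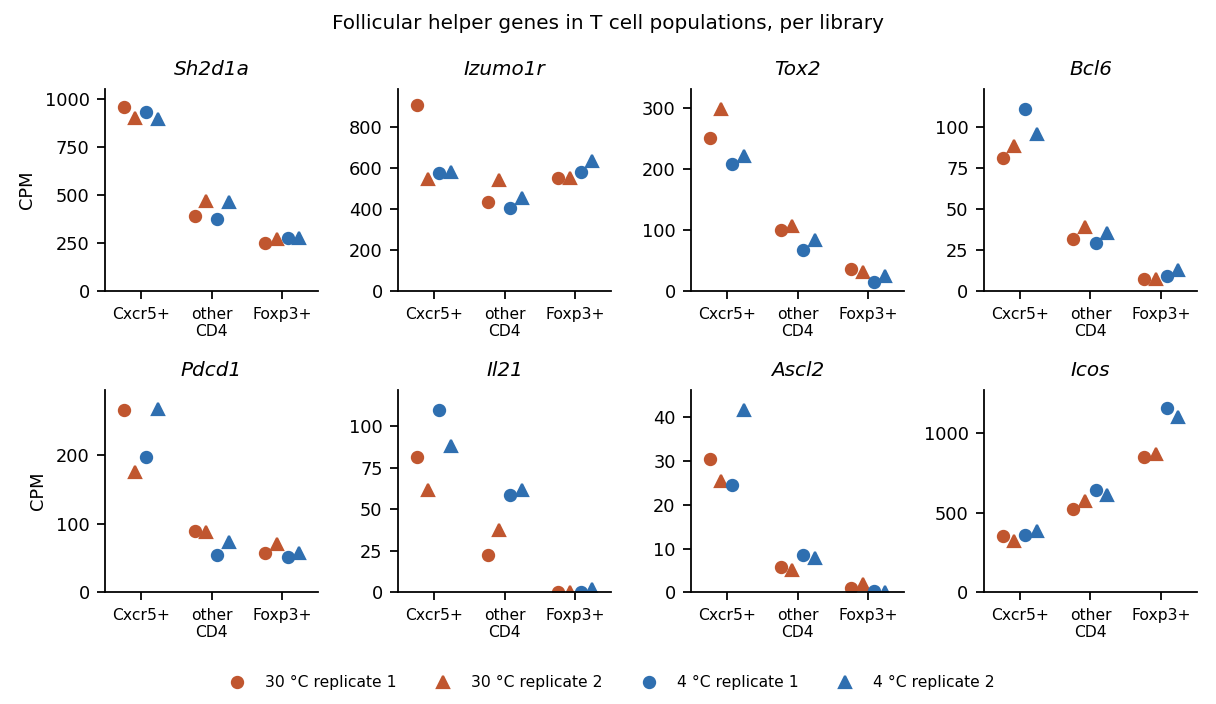
Level in CPM of 8 follicular helper genes (y axis, from 0) in Cxcr5+ T cells, other CD4 T cells and Foxp3+ T cells without Cxcr5 (x axis), a point for each library, with colour for temperature and shape for replicate. Bcl6, Tox2, Sh2d1a, Pdcd1, Il21 and Ascl2 were higher in the Cxcr5+ T cells than in the other CD4 T cells of the same library in all 4 libraries, and Icos was lower.

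The 10 genes furthest above the other CD4 T cells fell into 4 carried mostly by cells with Pdcd1 and 6 carried mostly by cells with Eomes. Gal, which encodes the neuropeptide galanin, held 94.4 and 194 CPM at 30 °C and 190.2 and 146 at 4 °C, against 4.35, 9.54, 0 and 5.89 in the other CD4 T cells (log2 fold change 5.11 ± 0.28), and there was no Gal UMI in the Foxp3+ T cells without Cxcr5, which makes the Cxcr5+ T cells at least 683-fold higher than 3 counts over those cells. The Foxp3+ T cells with Cxcr5 held 37 Gal UMIs (26.7 CPM, against 160 CPM over all Cxcr5+ T cells). Its 625 UMIs came from 36 cells, up to 101 in a cell, and 35 of these cells also carried Pdcd1 while 0 carried Eomes. Pgam2, a muscle form of a glycolytic enzyme, was found in 30 cells, all with Pdcd1, and was higher by 3.67 ± 0.43. Mei1, a meiosis gene, and the long noncoding RNA Gm30211 were higher by 3.45 ± 0.42 and 3.74 ± 0.29, and 76.7% and 83.7% of the cells with them carried Pdcd1, against 55.9% of all Cxcr5+ T cells.

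The other 6 genes were carried mostly by the cells with Eomes, which made up 11.4% of the Cxcr5+ T cells. They were the potassium channel gene Kcnc1 (25 of 26 cells with Eomes), the receptor phosphatase gene Ptprk (37 of 38), the surface protein gene Ly6c2 (41 of 49), Ddc, whose product makes dopamine and serotonin (30 of 37), the activin antagonist gene Fst (21 of 29) and the SLAM family receptor gene Slamf7 (57 of 74). Kcnc1 had 64 UMIs in the Cxcr5+ T cells and 0 in the other CD4 T cells, at least 39.0-fold higher against a floor of 3 counts over the group. These 6 differences turned on which T cells were compared. When the other T cells did not need a Cd4 UMI, the log2 difference was 0.17 for Kcnc1 and fell from 3.73 to 0.43 for Ptprk, neither past the threshold. The main fit gave 7.46 for Kcnc1, which is no measured fold because the other CD4 T cells held 0 UMIs of it. For Ddc, Fst, Ly6c2 and Slamf7 the difference fell to between 0.73 and 0.83, whereas Gal, Pgam2, Mei1 and Gm30211 stayed at 3.12 or more in every alternative that could be fitted. Slamf7 also missed the threshold among cells with a Cd4 UMI and no Cd8a UMI (adjusted p = 0.16).

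The 10 genes that were lower by the most in the Cxcr5+ T cells than in the other CD4 T cells were Klrg1, an inhibitory receptor of effector cells (−3.51 ± 0.52), Socs2 (−3.25 ± 0.39), the ectonucleotidase gene Entpd1, also known as CD39 (−3.15 ± 0.47), Gbp2b, Cish, Neb, Kctd12, Il18rap, Il2ra and Rxra (−2.46 ± 0.38). Il2ra, the high-affinity subunit of the interleukin 2 receptor, stood at 13.1, 24.2, 14.4 and 3.33 CPM against 76.1, 89.6, 76.9 and 48.1. Cish, a feedback inhibitor of cytokine receptors, stood between 11.9 and 14.5 against 74.9 to 89.9. Prdm1, the factor that opposes Bcl6, was lower by 2.14 on the log2 scale. The 10 largest kept their side of the threshold in every alternative that could be fitted.

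Homing receptors were lower more often than higher in the Cxcr5+ T cells. Over all genes tested 5.17% were higher and 6.11% lower. Of 23 listed, 21 were tested, 4 were higher, 15 lower and 2 did not pass, with a median log2 fold change of −0.87. The lower ones included Ccr2, Itgae, Ccr4 and Cxcr6, which guide or hold T cells in tissue (−2.33, −2.31, −1.92 and −1.81), and the higher ones included S1pr2, Gpr183 and Cxcr4 (1.50, 0.79 and 0.49). Of 16 genes of other helper lineages, 10 were tested and 8 were lower, among them Il2, Areg and Ifng (−2.0, −1.68 and −1.41), with 0 higher. Of 18 NF-kB genes tested 7 were lower and 0 higher, and of 22 immediate early genes tested 4 were higher (Egr1, Egr2, Egr3 and Nr4a2) and 8 lower. Of 13 glycolysis genes tested, 5 were higher, Tpi1 most (0.74), and 8 did not pass. Of 11 B cell markers tested, Fcmr and Ighm were higher (0.94 and 0.41) and the class II genes H2-Aa, H2-Eb1, Cd74 and H2-Ab1 lower.

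Against the Foxp3+ T cells without Cxcr5, 2308 of 8888 genes (26%) passed, 1115 (12.5%) higher and 1193 (13.4%) lower in the Cxcr5+ T cells. Bcl6 was higher by 3.32 ± 0.16, Tox2 by 3.22 ± 0.12, Il21 by 6.55 ± 0.26 and Tcf7 by 3.87 ± 0.09, and Il2ra was lower by 4.73 ± 0.19 on the log2 scale. Izumo1r and Maf did not pass (0.13 ± 0.09 and −0.02 ± 0.08). Since Foxp3 and Cxcr5 were both used to separate these cells, genes that follow either were bound to differ. Foxp3+ T cells with Cxcr5 held 59.1 CPM of Bcl6 and 118 of Tox2, against 9.39 and 26.0 in those without Cxcr5. The Cxcr5+ T cells held 96.3 and 239.

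Chat, the gene whose reporter was used for the sort (chr14:32408203-32465989 on GRCm38, minus strand, protein coding), was detected in 284 of the 555 Cxcr5+ T cells (51.2%, exact 95% interval 46.9 to 55.4), against 37.9% of the other CD4 T cells, 45.8% of the Foxp3+ T cells and 0 of 102 stromal cells, which by 3 counts allows a share of cells with a UMI of up to 2.94% (exact 95% upper limit 3.55%). The median depths were 6268, 5950, 5455 and 5338.5 UMIs per cell. Stromal cells were chosen by Col3a1 with no UMI of the CD3 genes or Cd79a, which leaves out those with stray RNA of these genes. In the Cxcr5+ T cells its level was 159.7 and 155 CPM at 30 °C and 152 and 153 at 4 °C. In the other CD4 T cells it was 98.6, 105, 105 and 106, so that all 4 libraries of the Cxcr5+ T cells lay above all 4 of the other CD4 T cells (log2 fold change 0.53 ± 0.09, edgeR adjusted p = 3.2e-04). Among the 75 cells without the 4 B cell genes, the difference was 0.01 and did not pass (adjusted p = 1.00). Thinned to 3600 UMIs per cell, Chat was detected in 37.5% of the Cxcr5+ T cells and 25.9% of the other CD4 T cells.

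The order of Chat levels, as means of 4 libraries, was 155 ± 3.39 (SD) CPM in Cxcr5+ T cells, 150.4 ± 63.1 in Foxp3+ T cells with Cxcr5, 144 ± 21.6 in Foxp3+ T cells without it, 104 ± 3.56 in other CD4 T cells, 67.7 ± 19.3 in γδT cells, 59.1 ± 13.1 in B cells, 15.8 ± 11.3 in macrophages and 0 in stromal cells. These means and SDs pool both temperatures. At 30 °C the mean was higher in the Foxp3+ T cells with Cxcr5 than in the Cxcr5+ T cells (174.6 against 157 CPM), and at 4 °C it was higher in the Foxp3+ T cells without Cxcr5 (154 against 153). B cells were at 48.2 and 70.0 CPM at 30 and 4 °C, and macrophages at 6.70 and 24.9. The libraries of the first 3 overlapped, and against the Foxp3+ T cells the fitted log2 difference was 0.10 ± 0.10 (edgeR adjusted p = 0.52). Within the gate, Chat was at 92.4 CPM in T cells with no Cxcr5 UMI and at 141, 153 and 187 in cells with 1, 2 and 3 or more. Cells with and without Eomes held 117 and 162. All of these cells had been sorted on eGFP from the Chat transgene, so these are levels within sorted cells.

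**Figure D2:**
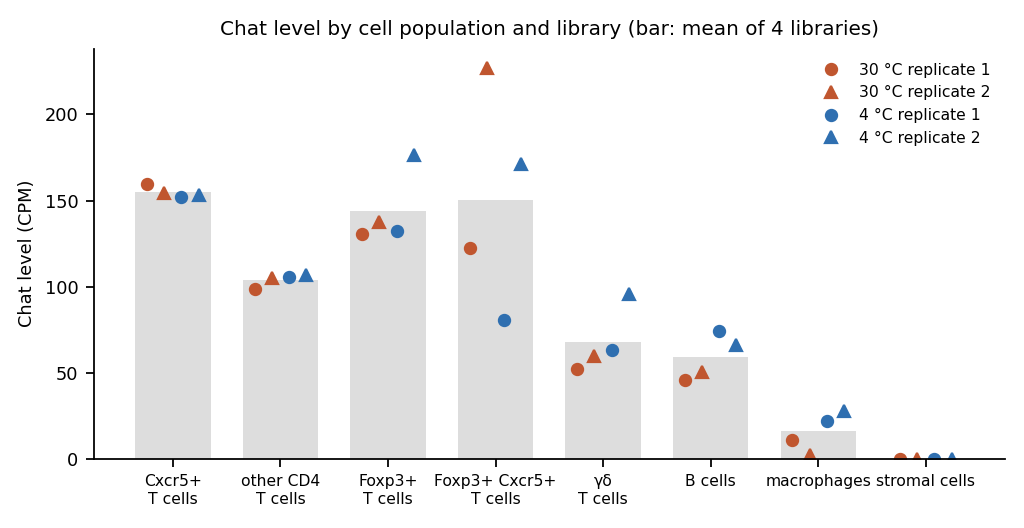
Chat level in CPM (y axis, from 0) in 8 cell populations (x axis), a point for each library and a grey bar for the mean of 4 libraries. The Cxcr5+ T cells lie between 152 and 159.7 in every library, above the other CD4 T cells at 98.6 to 106.

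After cold challenge Chat did not pass the test in the Cxcr5+ T cells. The mean level was 157 ± 3.58 (SD, n = 2 libraries) CPM at 30 °C and 153 ± 0.799 at 4 °C, a log2 fold change of −0.09 ± 0.14 (edgeR adjusted p = 0.95). Chat was detected in 44.4% and 47.4% of the cells at 30 °C and in 59.6% and 50.3% at 4 °C, a share higher by 9.05 points (two-sided exact permutation p = 0.333, the smallest that 2 libraries against 2 can give), and at 3600 UMIs per cell it was higher by 5.03 points (exact permutation p = 0.667). The share and the level pointed in opposite directions, so no order is read from the share. Of the 17 listed genes of acetylcholine synthesis, transport, breakdown and receptors, 5 passed the filter on low counts, and 0 passed edgeR's test or had an unadjusted p under 0.05, with 0 called by DESeq2 of the 2 to which it gave an adjusted p. Over all genes tested 0.289% were called and 6.99% had an unadjusted p under 0.05, so 0 of 5 is near the share over all genes.

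The Cxcr5+ T cells made up 1.91% (exact 95% interval 1.55 to 2.32) and 2.47% (2.07 to 2.92) of the cells kept at thermoneutrality. After cold challenge they made up 2.93% (2.49 to 3.42) and 3.12% (2.67 to 3.63). Both cold libraries were above both at thermoneutrality, and the means were 2.19% ± 0.397 (SD, n = 2) and 3.03% ± 0.138, higher by 0.839 points at 4 °C (two-sided exact permutation p = 0.333, the smallest possible). As a share of the T cells of the same gate with any Cxcr5 count, they made up 15.5% and 17.6% at 30 °C and 18.8% and 22.4% at 4 °C. The other CD4 T cells also made up more of the cells kept at 4 °C, at 4.01% and 4.27% at 30 °C and 6.12% and 5.54% at 4 °C. Of the Cxcr5+ T cells and the other CD4 T cells together, the Cxcr5+ T cells made up 32.2% and 36.6% at 30 °C and 32.4% and 36.1% at 4 °C, which overlap. The difference among cells kept was 0.586 points without cells with Eomes or Nkg7 and 0.366 points with at least 2 Cxcr5 UMIs. A share counts eGFP+ cells that were sorted and passed the filters, so it is not an abundance in the tissue.

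The main comparison asked which genes changed in the Cxcr5+ T cells after cold challenge. Of 7611 genes tested, 22 (0.289%) passed edgeR's test, 3 (0.0394%) higher and 19 (0.25%) lower after cold challenge. At an unadjusted p under 0.05 there were 532 (6.99%). DESeq2 called 11 genes, 1 higher and 10 lower, all among the 22. Leaving out replicate 2 at 4 °C left 5 calls, whereas leaving out replicate 1 or replicate 2 at 30 °C gave 65 and 73. Both cold libraries lay beyond both thermoneutral libraries for all 22 genes, and the same was true of 37.2% of all genes tested.

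Of the 19 genes that fell, 8 were on a list of genes known to be induced by glucocorticoids, and 5 of these were also on a list of FOXO targets and genes that restrain mTOR. Tsc22d3, which encodes GILZ, an inhibitor induced by glucocorticoids, fell from 120.5 and 139 CPM at 30 °C to 36.5 and 30.8 at 4 °C, a log2 fold change of −2.0 ± 0.20 (edgeR adjusted p = 3.1e-05). Il7r, the receptor for the survival cytokine interleukin 7, fell from 196 and 219 to 60.3 and 54.1 (−1.91 ± 0.16, edgeR adjusted p = 4.7e-06). Txnip, an inhibitor of thioredoxin and of glucose uptake, fell from 308 and 344 to 104 and 91.5 (−1.79 ± 0.15, edgeR adjusted p = 4.7e-06). In each the cold libraries lay close together and far under the thermoneutral ones.

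Fkbp5, a cochaperone of the glucocorticoid receptor, fell from 187 and 237 to 61.1 and 80.7 CPM (−1.63 ± 0.17, edgeR adjusted p = 6.4e-05). Il7r and Fkbp5 passed in all 17 alternatives tried, each over the gene's alternatives at an adjusted p of 0.031 or less. Bbc3, which encodes the cell death protein PUMA, fell by 1.84 ± 0.33, Pik3ip1, an inhibitor of PI3 kinase, by 1.70 ± 0.30, Ddit4, an inhibitor of mTORC1, by 1.27 ± 0.17 and Zfp36l2, an mRNA decay factor, by 1.14 ± 0.13 on the log2 scale. The transcriptional cofactor gene Lmo4 fell by 1.28 ± 0.20, the cyclin gene Ccnd3 by 1.16 ± 0.15, Gm45716 by 1.02 ± 0.18 and Serinc3, a membrane protein gene, by 0.95 ± 0.15. The Il7r transcripts came from few cells, with a UMI in 69 of 232 cells at 30 °C and 41 of 323 at 4 °C and up to 44 UMIs in a cell, while Txnip was found in 149 and 138 cells.

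The remaining falls were smaller or rested on few transcripts, and these genes are outside the rule for naming. Cirbp, a cold-inducible RNA-binding protein named for its rise in cooled cells, fell by 0.86 ± 0.15, and its relative Rbm3 had a log2 fold change of −0.25 ± 0.10 that did not pass (edgeR adjusted p = 0.57). Cxcr4, the receptor that holds cells in marrow and germinal centre dark zones, fell by 0.73 ± 0.14, Pdcd4, an inhibitor of translation, by 0.70 ± 0.11, and Arap2, Atp1b3 and Ube2s by 0.91 ± 0.17, 0.71 ± 0.14 and 0.67 ± 0.13. Trav7d-3, a variable segment of the T cell receptor α chain, had 24 UMIs at 30 °C and 2 at 4 °C, and 12 of the 24 came from 1 cell of replicate 2.

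**Figure D3:**
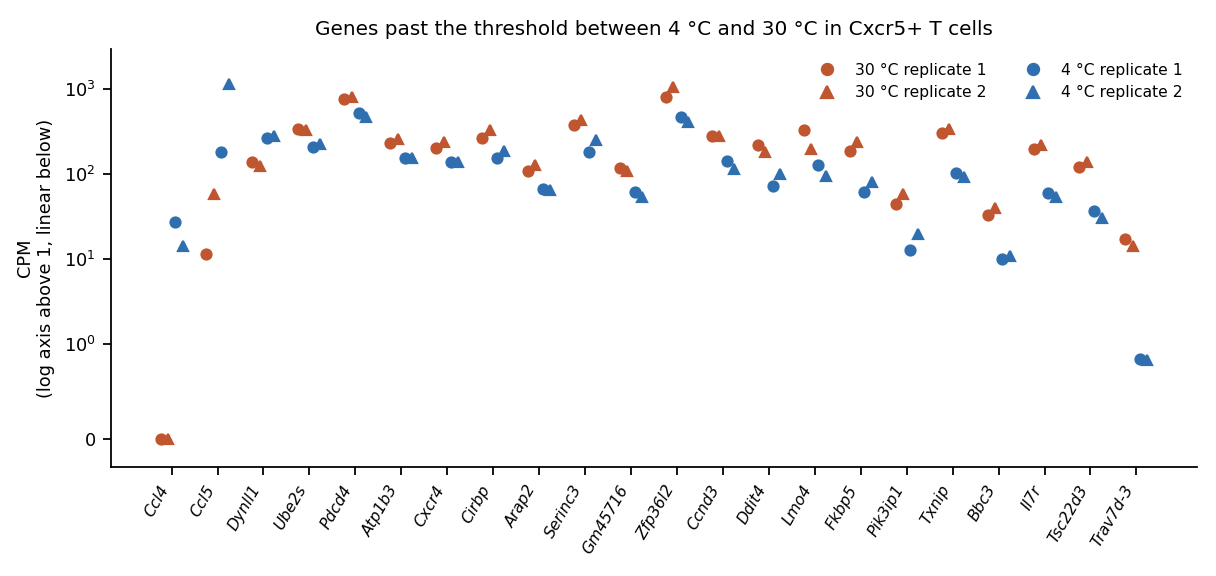
Level in CPM (y axis, log scale above 1 and linear below) in the Cxcr5+ T cells of each library for the 22 genes past the threshold, from the largest rise on the left to the largest fall on the right. The cold libraries (blue) lie above the thermoneutral ones (red) for Ccl4, Ccl5 and Dynll1 and under them for the other 19, and Ccl5 spans 11.6 to 1143.

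The glucocorticoid response list had the most falls among the 26 lists. Of 20 genes listed, 14 were tested, and 8 fell, 0 rose and 6 did not pass, with a median log2 fold change of −0.94, beside 0.00 over all genes tested and 0.25% of all genes called lower. The 8 were Tsc22d3, Il7r, Txnip, Pik3ip1, Fkbp5, Ddit4, Zfp36l2 and Cxcr4, of which DESeq2 called 6, without Pik3ip1 and Cxcr4. Per1, a clock gene that glucocorticoids induce, had a log2 fold change of −0.19 ± 0.35, and Dusp1, a phosphatase with the same property, −0.54 ± 0.13 (edgeR adjusted p = 0.96 and 0.17). Of 18 FOXO targets and mTOR-restraint genes, all tested, 5 fell, all of them also on the first list (4 by DESeq2), and 13 did not pass, among them Klf2 and S1pr1 (−0.17 ± 0.16 and −0.16 ± 0.27). Earlier results of these data were known when both lists were chosen, and they overlap, so neither is independent evidence.

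Short motifs were looked up in the promoters of the genes that fell, from 250 bases before to 50 after each start in RefSeq on GRCm38.p6, on both strands. Of the 19 genes, 16 had a promoter there. The FOXO motif GTAAACA was in 3 of them, Txnip, Bbc3 and Ccnd3, against 4.05% of all 27025 genes, and the E-box CACGTG of clock factors was in 3, Bbc3, Atp1b3 and Fkbp5, against 8.09%. The glucocorticoid response element, AGAACA and TGTTC with 3 free bases between them, was in 0 of 16 and in 0.0518% of all genes, and the cAMP response element TGACGTCA was in 0 of 16, against 2.03%. The AP-1 motif TGANTCA was in 1, against 8.97%, and the NF-kB motif, GGGA and CC with 4 free bases between them, in 5, against 22.9%. A match shows only that the letters are present, and Bbc3, Ccnd3 and other genes have more than 1 start. For 4 of the genes named by size, a window with a match is printed with the match in capitals, the FOXO motif on either strand in Txnip, Bbc3 and Ccnd3 and the E-box in Fkbp5, while the E-box of Bbc3 lies in the window of another start. They are Txnip at chr3:96557707-96558006 (plus strand), Bbc3 at chr7:16310011-16310310 (plus strand), Ccnd3 at chr17:47504801-47505100 (plus strand) and Fkbp5 at chr17:28486100-28486399 (minus strand).
Txnip: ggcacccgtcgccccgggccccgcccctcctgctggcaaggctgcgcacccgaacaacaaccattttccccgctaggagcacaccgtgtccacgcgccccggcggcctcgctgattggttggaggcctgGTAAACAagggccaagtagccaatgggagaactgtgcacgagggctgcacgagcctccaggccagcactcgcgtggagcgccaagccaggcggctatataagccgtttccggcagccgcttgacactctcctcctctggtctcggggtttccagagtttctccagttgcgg
Bbc3: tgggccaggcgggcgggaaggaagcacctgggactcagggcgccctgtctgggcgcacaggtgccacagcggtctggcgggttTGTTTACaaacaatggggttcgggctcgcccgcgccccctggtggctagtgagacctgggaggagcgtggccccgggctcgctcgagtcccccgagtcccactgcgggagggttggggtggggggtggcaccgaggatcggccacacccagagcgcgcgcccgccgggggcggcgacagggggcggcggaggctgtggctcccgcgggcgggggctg
Ccnd3: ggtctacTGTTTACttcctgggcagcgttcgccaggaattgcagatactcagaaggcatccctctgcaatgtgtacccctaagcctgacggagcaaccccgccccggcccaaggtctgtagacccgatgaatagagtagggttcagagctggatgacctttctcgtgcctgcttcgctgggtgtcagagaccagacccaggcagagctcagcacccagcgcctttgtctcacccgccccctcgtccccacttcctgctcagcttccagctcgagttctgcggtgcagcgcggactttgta
Fkbp5: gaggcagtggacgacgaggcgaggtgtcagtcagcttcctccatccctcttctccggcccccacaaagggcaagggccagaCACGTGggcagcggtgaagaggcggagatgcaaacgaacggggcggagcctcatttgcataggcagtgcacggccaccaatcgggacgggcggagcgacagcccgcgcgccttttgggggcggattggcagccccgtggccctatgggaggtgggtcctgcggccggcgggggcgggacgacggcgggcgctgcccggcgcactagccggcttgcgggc

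The 3 genes that rose were of different kinds. Dynll1, a light chain of dynein, rose from 141 and 124 CPM to 265 and 282, a log2 fold change of 1.00 ± 0.14 (edgeR adjusted p = 0.0019), and was detected in 122 of 232 cells at 30 °C and 240 of 323 at 4 °C. The chemokine genes Ccl5 and Ccl4, products of cytotoxic and effector T cells, rose in a few cells only. Ccl5 was at 11.6 and 59.2 CPM at 30 °C and 181 and 1143 at 4 °C (log2 fold change 4.09 ± 0.65, edgeR adjusted p = 0.0058), and 1 cell of replicate 2 at 4 °C held 688 of its 1644 UMIs (41.9%). Ccl4 had no UMI at 30 °C and 32 and 17 at 4 °C from 6 cells, at least 10.4-fold higher against 3 counts over the group.

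Ccl5 stood higher in the sum over the cells that carried Eomes than over the others, in each library. Over those with Eomes it was at 38.6 and 250 CPM at 30 °C and 873 and 4818 at 4 °C, and in the cells without Eomes at 9.42, 20.4, 57.1 and 32.5. A few cells made up these sums. In replicate 1 at 4 °C 1 of the 18 cells with Eomes held 140 of their 156 Ccl5 UMIs, and in replicate 2 at 4 °C 4 of the 23 held 688, 265, 260 and 84 of their 1344. No Ccl5 UMI was found in 9 and 13 of these cells, or in 4 of the 6 and 10 of the 16 at 30 °C. Without cells with an Eomes or Nkg7 UMI the log2 fold change of Ccl5 was 0.58 ± 0.40 (edgeR adjusted p = 0.80), while 29 genes passed in all, 19 of the original 22 among them. Without replicate 2 at 4 °C it was 2.25 (adjusted p = 0.14), and DESeq2 did not call it (adjusted p = 0.68). The 9 CD8 and cytotoxic markers summed to 118 and 327 CPM at 30 °C and 487 and 1618 at 4 °C, none was at 0, and Ccl5 was the most abundant.

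**Figure D4:**
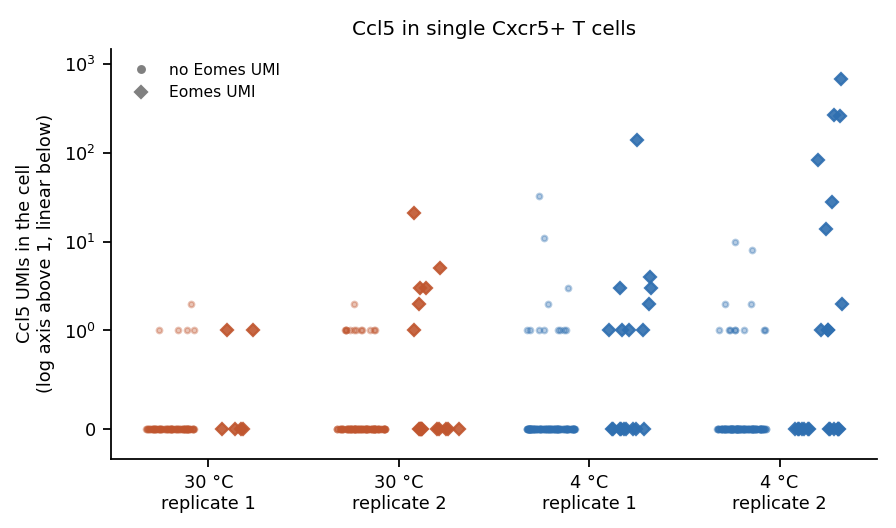
Ccl5 UMIs in single Cxcr5+ T cells (y axis, log scale above 1 and linear below) for each library (x axis), with dots for cells without an Eomes UMI and diamonds for cells with one. The highest cells are diamonds of replicate 2 at 4 °C, up to 688 UMIs, and most cells of every library have 0.

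The same genes were read in the other T cells of the same libraries, which share their mice and their handling. In the other CD4 T cells 111 of 8661 genes (1.28%) passed between temperatures (0.335% higher and 0.947% lower), and in the Foxp3+ T cells 373 of 9681 (3.85%; 1.61% higher and 2.24% lower), with more cells behind each sum. Of the 19 genes that fell in the Cxcr5+ T cells, 18 were tested in each of these populations, 16 fell in the other CD4 T cells and 14 in the Foxp3+ T cells. Tsc22d3 had a log2 fold change of −1.66 and −1.60 there, Fkbp5 of −2.12 and −1.92, Txnip of −1.61 and −1.42 and Il7r of −1.13 and −1.56. Dynll1 rose in both, by 0.92 and 1.21. Ube2s and Gm45716 did not pass in either, and Ccnd3 and Arap2 did not pass in the Foxp3+ T cells.

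Whether the cold response itself differed was tested by an interaction term. Against the other CD4 T cells, 4 of 8602 genes (0.0465%) passed, none of them among the 19 falls (420, or 4.88%, had an unadjusted p under 0.05), and against the Foxp3+ T cells 3 of 9511 (0.0315%), 2 with a positive difference (0.021%) and 1 with a negative one (0.0105%), of which Ube2s was among the falls (474, or 4.98%, had an unadjusted p under 0.05). For Il7r the difference from the other CD4 T cells was −0.80 (edgeR adjusted p = 0.23), and for Serinc3 0.63 (edgeR adjusted p = 0.22). For Chat it was −0.11 against the other CD4 T cells and −0.24 against the Foxp3+ T cells (edgeR adjusted p = 1.00 and 0.98).

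**Figure D5:**
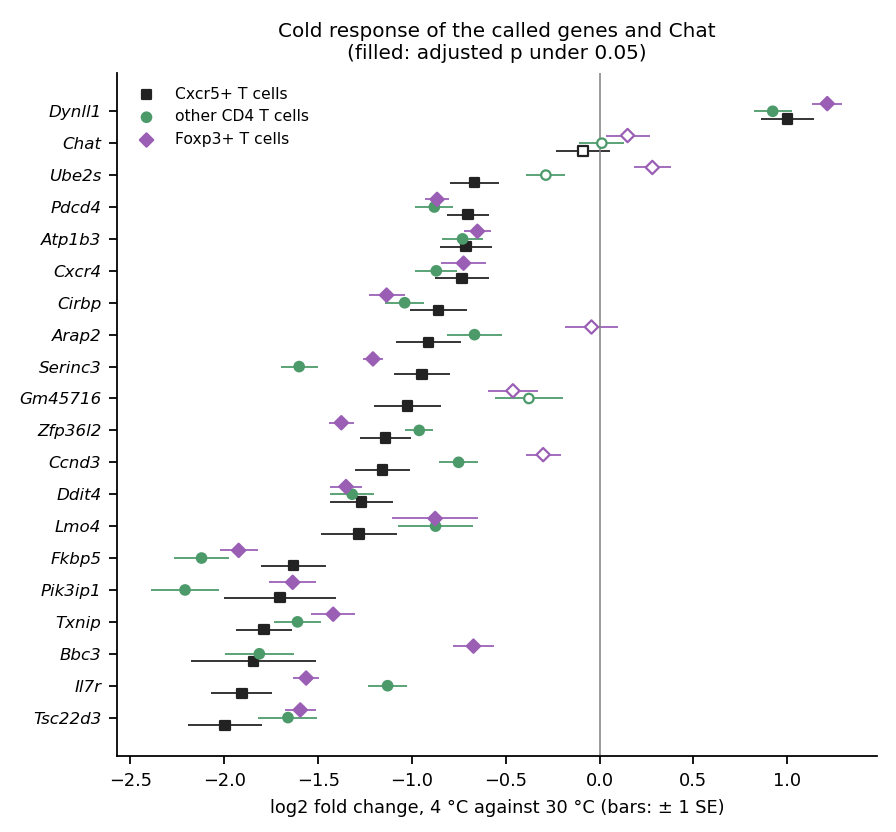
Log2 fold change at 4 °C against 30 °C with its SE (x axis) of Chat and the called genes (y axis) in 3 T cell populations, filled where the adjusted p was under 0.05. Ccl4, Ccl5 and Trav7d-3 are left out because few cells carried them, and Dynll1 is the only gene shown that rose in all 3 populations, while 14 fell in all 3.

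Genes of the follicular helper program gave no call after cold challenge, beside 0.289% of all genes called, a share at which lists of this size hold few calls or none. Of 29 tested genes of the program, edgeR called 0, DESeq2 called 0 of the 23 to which it gave an adjusted p, and 6 had an unadjusted p under 0.05, 3 in each direction. Bcl6 stood at 81.3 and 88.2 CPM at 30 °C and 111 and 95.7 at 4 °C (log2 fold change 0.24 ± 0.17, edgeR adjusted p = 0.86). Il21 had a log2 fold change of 0.43 ± 0.20 (edgeR adjusted p = 0.68), Il4 of 0.72 ± 0.33 (edgeR adjusted p = 0.70), Tox2 of −0.40 (edgeR adjusted p = 0.47) and Irf4 of 1.14 (edgeR adjusted p = 0.44). Of 15 cytokine genes tested, Ccl4 and Ccl5 alone passed, 13 had a positive log2 fold change and 11 of them an unadjusted p under 0.05, beside 0.0394% of all genes called higher and 6.99% with an unadjusted p under 0.05. Their median was 0.65, and DESeq2 called 0 of the 9 to which it gave an adjusted p. Ifng stood at 29.0 and 6.04 CPM at 30 °C and 44.2 and 25.0 at 4 °C, which overlap.

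Genes of activation and of adrenergic signals gave no call either, beside the same 0.289% of all genes. Of 21 immediate early genes tested, edgeR called 0 and DESeq2 0 of 18, and 6 had an unadjusted p under 0.05 upwards and 2 downwards, beside 6.99% of all genes in either direction. Fos stood at 66.8 and 54.4 CPM at 30 °C and 155 and 91.5 at 4 °C, without overlap (log2 fold change 0.98 ± 0.24, edgeR adjusted p = 0.17), and Fosb at 36.3, 51.9, 103 and 65.7 (0.87 ± 0.26, edgeR adjusted p = 0.38). Of 23 T cell receptor signalling genes 0 were called (2 at an unadjusted p under 0.05, 0 by DESeq2), and of 18 adrenergic and cAMP genes tested 0 (2 at an unadjusted p, 0 by DESeq2), with medians of 0.05 and 0.18. Of 18 NF-kB genes 0 were called (2 at an unadjusted p, 0 by DESeq2), of 13 glycolysis genes 0 (4, 0 by DESeq2), of 13 interferon-stimulated genes 0 (3, 0 by DESeq2) and of 13 cell cycle genes 0 (1, 0 by DESeq2). The Foxp3+ T cells, with more cells behind each sum, had calls in some of these lists. There 12 of 23 immediate early genes were higher and 0 lower (1.61% and 2.24% over all genes). Of 18 NF-kB genes 4 were higher and 0 lower, and of 20 adrenergic and cAMP genes 4 were higher and 1 lower. In the other CD4 T cells 1 of 23 immediate early genes was higher and 2 lower (0.335% and 0.947% over all genes).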

How the data were processed

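Male ChAT-BAC-eGFP mice gave 4 libraries of sorted eGFP+ cells (10x 3′ chemistry), 2 per temperature. Reads were aligned to mm10 by the authors with Cell Ranger (3.0.0 per the matrix headers, 3.1.0 in the submitters' processing notes), and the deposited values are whole UMI counts per gene and cell in filtered matrices, not normalized. The files held 26654 barcodes, with 76058112 to 84468931 UMIs per library. Cells with over 200 and under 5000 genes and under 7.5% mitochondrial UMIs were kept, which left 21249.

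Counts were summed per library and population. Genes were tested with edgeR 4.0.16 (quasi-likelihood, TMM scaling, filterByExpr, Benjamini-Hochberg, threshold 0.05) in R 4.3.3, with DESeq2 1.42.0 as an alternative. Temperature was tested over 4 sums, populations over 8 with library as a factor, and the difference of responses by an interaction. The SE printed after ± was the log2 fold change over the square root of F. CPM values are scaled to the summed UMIs of a population in a library. 2 libraries a group limit precision, and intervals (Clopper-Pearson, 95%) and the floor of 3 counts cover counting error only. Shares were compared by exact permutation over libraries (scipy 1.17.1), and cells were thinned to 3600 UMIs, which left out 54 of the 555. Scrublet (scanpy 1.11.5) scored doublets, which were left out only in an alternative.

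Genes named by size were, between temperatures, the 12 largest rises and falls past the threshold with libraries that did not overlap and at least 40 UMIs, and, against the other CD4 T cells, the 10 largest each way with the same direction in all 4 libraries. The cells, lists and tests were chosen with earlier results of these data known. In data simulated for the temperature comparison (7376 genes), 68.4% of 2-fold and 94.7% of 4-fold changes were recovered, and 6.55% of 168 calls were false. The alternatives were other scaling, filters, cell limits and gates, a replicate block, and leaving out each library. Some genes are not reported here.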

Additional observations from a re-analysis of the deposited data

Results flagged for a closer look

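The response to temperature differed between the Cxcr5+ T cells and the other CD4 T cells, by the interaction term, in 4 genes. For Ccl5 the difference of log2 fold changes was 4.21 (edgeR adjusted p = 8.1e-12), with 123 and 1885 UMIs at 30 °C and 655 and 1978 at 4 °C in the other CD4 T cells, up to 1374 of them in a cell. For Gzmk, a granule protease gene, it was 2.84 (edgeR adjusted p = 0.00021), with 8 and 28 UMIs at 30 °C and 50 and 120 at 4 °C in the Cxcr5+ T cells, and it did not pass without replicate 2 at 30 °C (adjusted p = 0.65). Within the Cxcr5+ T cells Gzmk did not pass (log2 fold change 1.54, edgeR adjusted p = 0.25), and it was at 254 CPM in those with Eomes and 12.6 in those without. In the other CD4 T cells it was at 7.25 and 56.5 CPM at 30 °C and 10.7 and 15.7 at 4 °C, and 1 cell held 21 of the 77 UMIs of replicate 2 at 30 °C. For Fabp4, a fatty acid binding protein of fat cells, it was 4.12 (edgeR adjusted p = 0.00021), and 1 other CD4 T cell of replicate 1 at 30 °C held 173 of that library's 183 UMIs. For Lyz2, a lysozyme of myeloid cells, it was 4.46 (edgeR adjusted p = 0.0043), and 1 other CD4 T cell of that library held 271 of 283 UMIs. The Cxcr5+ T cells held 4 and 3 Lyz2 UMIs at 30 °C and 11 and 11 at 4 °C, too few for Lyz2 to be tested there. Without replicate 1 at 30 °C neither passed, with Fabp4 at an adjusted p of 0.12 and Lyz2 turned to −0.51 (edgeR adjusted p = 1.00).

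Against the Foxp3+ T cells the response differed in 3 genes. For Ube2s, a ubiquitin-conjugating enzyme of mitosis, the difference was −0.96 (edgeR adjusted p = 0.041). This difference lay between −1.10 and −0.81 when a library was left out, and did not pass without replicate 1 or without replicate 2 at 30 °C. For Ly6c2 it was 2.86 (edgeR adjusted p = 0.027), and it did not pass without replicate 2 at 30 °C (adjusted p = 0.89). In the Cxcr5+ T cells Ly6c2 was at 81.3 and 289.9 CPM at 30 °C and 162 and 149 at 4 °C, which overlap (log2 fold change −0.34, edgeR adjusted p = 0.90). In the Foxp3+ T cells it was at 2.25 and 24.9 and then 1.58 and 1.28 CPM, and 1 cell held 31 of the 68 UMIs of replicate 2 at 30 °C. For Npm3, a nucleolar chaperone, the difference was 1.39 (edgeR adjusted p = 0.015). It lay between 1.24 and 1.52 when a library was left out, and did not pass without replicate 1 or without replicate 2 at 30 °C. Npm3 was at 69.7 and 73.7 CPM at 30 °C and 79.0 and 92.4 at 4 °C in the Cxcr5+ T cells. In the Foxp3+ T cells it was at 167 and 170.3 and then 79.0 and 74.0.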

How the results depend on the processing

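The 22 genes called between temperatures became 11 with DESeq2, 64 with no filter on low counts and 3 in the 75 cells without UMIs of the 4 B cell genes. They became 5 to 73 when a library was left out, which leaves 1 sample in a group that is assumed to vary like the other group. Between 15 and 32 were called under the other alternatives without a replicate block, among them 29 without cells with Eomes or Nkg7, a setting chosen after seeing the data. The replicate numbers are shared across temperatures, and over all genes same-numbered libraries did not deviate together (r = 0.020 for 1 with 1). A correlation over all genes cannot show whether single genes did. The labels do not say whether libraries with the same number were handled together, and this was not tested. With the replicate block 49 genes were called, all 22 among them. Alternative values of single genes between temperatures, not only of the genes named by size, kept their side of the threshold in 288 cases. In 68 cases they did not, and none of these 68 turned.

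The 901 genes called against the other CD4 T cells became 88 without the 4 B cell genes, 1617 with no Cd4 UMI required of the other T cells and 669 to 793 without a library. With no Cd4 UMI required, Cd200 turned to 0.19. The interaction gave 4 genes against the other CD4 T cells and 11 to 29 without a library, and 3 and then 1 to 36 against the Foxp3+ T cells. Without replicate 1 at 30 °C, Lyz2 turned to −0.51 (adjusted p = 1.00), and it was at most 5.31 without another library. The change of Chat with temperature turned to 0.35 in the 75 cells (adjusted p = 0.96). The cause of these changes was not tested, and the effect of fewer cells or libraries was not measured on its own. The share of Cxcr5+ T cells was higher at 4 °C in every alternative, at 0.558 to 1.12 points without a library, and no p fell under 0.333, which says nothing of stability. Depth limits the genes with few UMIs, such as Bbc3 and Trav7d-3.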
